A study of Homo sapiens with 6 samples.

Results

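The butyrophilin genes described here were the 9 symbols BTN1A1, BTN2A1, BTN2A2, BTN3A1, BTN3A2, BTN3A3, BTNL3, BTNL8 and BTNL9, chosen by name, of 16229 genes listed in the count table. All 9 had a row. They were measured by bulk RNA sequencing in 6 libraries, 3 labelled GCA and 3 labelled CON. GCA is read as glycocholic acid, the bile acid in the series' title, and the GCA cells were kept with it for 24 hours at a dose not given in the sources used here. CON cells were kept without it, and all 6 samples carry the genotype label WT and the cell line label MC38, described as colorectal cancer cells. MC38 is known as a mouse line, but the organism label and build are human, and this conflict was not resolved here. The rows carry symbols of the human build, so a match of 99.2% of them to a human gene table cannot decide the species. The molecule label reads polyA RNA, while the library protocol names a total RNA kit with ribosomal RNA depletion. The GCA samples are titled fa, so every GCA value rests on the treatment label. Whether the replicates were grown as separate cultures is not stated, so p-values cover sample-to-sample spread that may be technical.

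Butyrophilins are membrane proteins of the immunoglobulin superfamily, related to the B7 costimulatory ligands, and most carry an intracellular B30.2 domain. In humans, BTN3A1 binds phosphorylated isoprenoid intermediates of the mevalonate pathway through that domain. Together with BTN2A1, which contacts the gamma chain of the receptor, it activates the main gamma-delta T cell population of human blood. BTN3A2 lacks the B30.2 domain and acts with BTN3A1, while BTNL3 and BTNL8 are known as a pair in the gut epithelium that acts on resident gamma-delta T cells. BTN1A1 is best known from milk fat secretion and BTN2A2 as an inhibitor of T cell activation, so not every gene of the group is an established gamma-delta ligand. Mice have no BTN3A genes, and here the 3 BTN3A genes had counts in each of the 6 libraries.

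Of these, 6 genes lie in a single cluster on chromosome 6, 26365169 to 26510425 (GRCh38.p14), in the order BTN3A2, BTN2A2, BTN3A1, BTN3A3, BTN2A1 and BTN1A1. BTNL8, BTNL3 and BTNL9 lie on chromosome 5. RefSeq promoter windows, 250 bases before to 50 after the transcript start, were at hand for BTN1A1, BTN2A1, BTN3A2, BTN3A3, BTNL8 and BTNL9. Those of BTN3A3 and BTN3A2 are shown because their sequences were alike while their measured changes were not, and that of BTN2A1 because it is the partner of BTN3A1. In the first pair capitals mark the bases that differ between both windows in a global alignment, and in BTN2A1 they mark matches to the CCAAT box. The windows are from build GRCh38.p14, plus strand, at chr6:26440254-26440553, chr6:26364948-26365247 and chr6:26457705-26458004, written 5′ to 3′.
BTN3A3: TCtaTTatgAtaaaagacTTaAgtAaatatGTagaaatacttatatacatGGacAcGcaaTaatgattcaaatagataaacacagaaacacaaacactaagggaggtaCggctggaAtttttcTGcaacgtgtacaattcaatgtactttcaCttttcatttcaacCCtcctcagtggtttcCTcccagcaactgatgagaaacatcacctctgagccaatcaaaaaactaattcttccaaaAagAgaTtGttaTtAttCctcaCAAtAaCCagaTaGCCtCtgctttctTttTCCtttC
BTN3A2: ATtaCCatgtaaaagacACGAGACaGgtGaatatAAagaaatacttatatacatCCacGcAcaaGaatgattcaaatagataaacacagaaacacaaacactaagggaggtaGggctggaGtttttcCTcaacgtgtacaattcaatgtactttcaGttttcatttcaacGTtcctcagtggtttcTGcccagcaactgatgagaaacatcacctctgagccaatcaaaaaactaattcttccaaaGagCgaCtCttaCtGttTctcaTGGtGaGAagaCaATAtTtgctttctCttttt
BTN2A1: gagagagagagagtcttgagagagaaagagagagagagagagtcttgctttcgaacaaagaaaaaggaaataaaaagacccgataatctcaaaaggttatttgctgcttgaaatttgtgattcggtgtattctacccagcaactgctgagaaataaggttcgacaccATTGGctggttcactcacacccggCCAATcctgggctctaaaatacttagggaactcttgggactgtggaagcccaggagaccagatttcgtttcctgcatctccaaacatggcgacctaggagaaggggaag

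The BTN3A3 window and the first of 2 BTN3A2 windows were identical at 85.4% of aligned bases, whereas all other pairs of windows lay between 64.0% and 76.8%. Both hold a CCAAT box (CCAAT, searched on both strands), 34 bases before the start in BTN3A3 and 30 before it in BTN3A2. BTN2A1 holds 2 matches to this box, which 34.5% of the 14904 windows of tested genes hold. The core of the interferon-stimulated response element (GAAA, NN, then GAAA) matched once, on the minus strand of BTN3A3 from base 36 to base 45 after the start (TTTCTTTTTC), and in none of the other windows of the group. Of all windows of tested genes, 2.74% hold it. The GAS core (TTCNNNGAA) and a sterol-type box (TCACNNNAC), held by 6.03% and 9.51% of windows, matched in none of them. These are matches of letters and not measured binding sites.

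Cells of both groups expressed 7 of the 9 butyrophilins at low to middling levels, and BTNL3 and BTNL8 were near 0. On the FPKM scale, which corrects for length, BTN2A2 was the highest of the 9 in GCA at 4.65 ± 0.526 FPKM (SD, n = 3), followed by BTN2A1 at 2.32 ± 0.358, BTN3A2 at 1.72 ± 0.313 and BTN3A1 at 0.881 ± 0.248 FPKM. In CON the order was BTN2A1 at 3.32 ± 1.35, BTN2A2 at 2.88 ± 0.806, BTN3A2 at 1.97 ± 0.593 and BTN3A1 at 0.791 ± 0.131 FPKM. In CON the levels of BTN2A1 and BTN2A2 lay within 1 SD of each other. BTN3A3 averaged 0.701 ± 0.183 FPKM in GCA and 0.165 ± 0.0683 FPKM in CON. BTNL9 averaged 0.681 ± 0.145 FPKM in GCA and 0.504 ± 0.214 FPKM in CON, and BTN1A1 averaged 0.265 ± 0.0781 FPKM in GCA and 0.1105 ± 0.0383 FPKM in CON. In GCA, BTN3A1, BTN3A3 and BTNL9 stood within 1 SD of each other.

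Total counts per library ran from 18057453 to 20531612. Changes were tested with edgeR's quasi-likelihood test over all 12604 genes that passed a filter on low counts, with Benjamini-Hochberg adjustment over all of them, a threshold of 0.05 and n = 3 per group. Of the 9 butyrophilins 7 passed the filter. BTN3A3, BTN2A2 and BTN1A1 rose, and BTN2A1, BTN3A1, BTN3A2 and BTNL9 did not pass the test. Among all tested genes 18.3% were called higher in GCA, 18.1% lower and 36.4% in either direction, so calls were common. The median log2 fold change was 0.50 over the 7 tested butyrophilins and -0.04 over all genes tested. BTN1A1 and BTN3A3 passed the filter through their GCA libraries, since 0 and 2 of 3 CON libraries reached its minimum. The count of rises and the median over the 7 are therefore descriptions. The tested butyrophilins that reached the minimum in every library ran from -0.45 (BTN2A1) to 0.75 (BTN2A2) on the log2 scale. In all 7 genes CON 1 was the lowest of the CON libraries, which held in 48.6% of all tested genes.

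**Figure D1:**
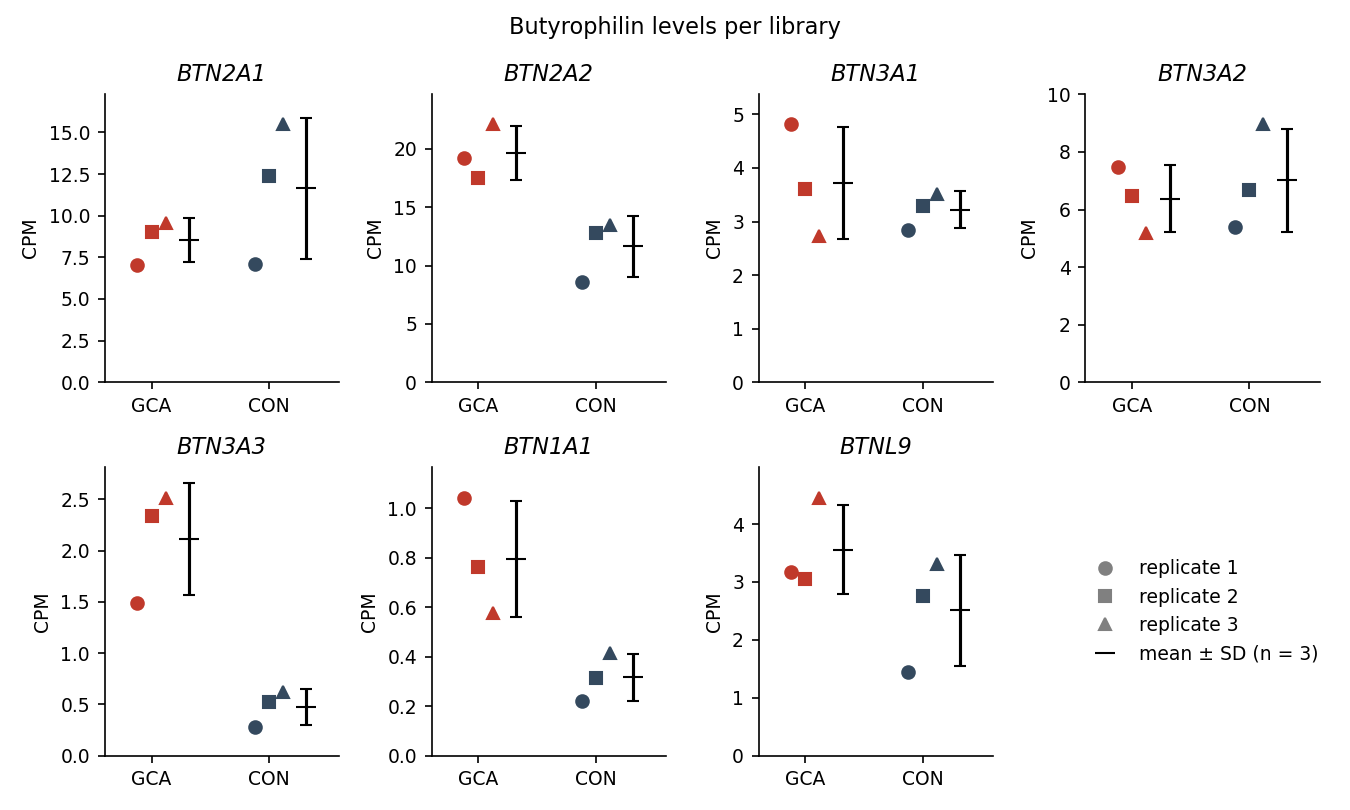
Level of each tested butyrophilin gene in library-scaled counts (CPM, linear axes from 0) in the 3 GCA and 3 CON libraries, with the mean and SD beside each group. The groups are apart in BTN2A2, BTN3A3 and BTN1A1 and overlap in BTN2A1, BTN3A1, BTN3A2 and BTNL9.

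BTN3A3, the BTN3A gene whose B30.2 domain is known to bind phosphoantigens poorly, showed the largest change of the group. It had 30, 46 and 48 counts in GCA 1 to 3, against 5, 10 and 12 counts in CON 1 to 3. Scaled to library size these were 1.49, 2.34 and 2.51 CPM in GCA and 0.278, 0.521 and 0.621 CPM in CON. Every GCA library lay above every CON library, as in 24.1% of all tested genes. The log2 fold change was 2.13 ± 0.38 (SE), a 4.38-fold higher level (edgeR adjusted p = 0.00117). The call held in each of the 20 alternative fits, with adjusted p-values from 9.41e-05 to 0.0119. The gene passed the count filter through its GCA libraries, with 2 of 3 CON libraries at the minimum, so the call is a description. The change read 0.54 with log2(FPKM + 1) and 1.61 with log2(FPKM + 0.1), scales that shrink changes of low genes.

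BTN3A1, which carries the phosphoantigen-binding domain, showed no call. It had 97, 71 and 52 counts in GCA, against 51, 63 and 68 in CON, or 4.81, 3.61 and 2.72 CPM in GCA and 2.84, 3.28 and 3.52 CPM in CON. The GCA libraries spanned the whole CON range. Its log2 fold change was 0.21 ± 0.25 (adjusted p = 0.538), and -0.0024 without GCA 1. BTN3A2 had 151, 127 and 99 counts in GCA, against 97, 128 and 173 in CON, or 7.49, 6.46 and 5.19 CPM in GCA and 5.402, 6.67 and 8.96 CPM in CON. These ranges overlapped as well, and the log2 fold change of -0.14 ± 0.22 did not pass (adjusted p = 0.658). The sign of the BTN3A2 value turned after adjustment for GC and length (0.016) and without CON 3 (0.092).

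Read sharing among the BTN3A genes bears on these values, because the genes are close copies. In GENCODE 29 transcripts, 5.60% of the distinct 100-base runs of BTN3A3 also occurred in another butyrophilin gene, mostly BTN3A2. The share was 4.82% for BTN3A2, 2.76% for BTN3A1, 0.662% for BTN2A1, 0.355% for BTN2A2 and 0 for BTN1A1 and BTNL9. With runs of 75 bases, a length added after the data were seen, it was 9.23% for BTN3A3. None of the 9 genes shared exon bases with another annotated gene on either strand.

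The BTN3A counts were also summed, as a level that does not depend on how the counted reads were split among these genes. How reads that match more than 1 gene were handled is not stated, and any left uncounted are missing from the sum. The sum was 278, 244 and 199 counts in GCA and 153, 201 and 253 in CON, which gave 12.2 ± 1.70 CPM in GCA and 10.7 ± 2.30 CPM in CON. The groups overlapped and their means differed by less than 1 SD. Within that sum, BTN3A3 made up 10.8%, 18.9% and 24.1% in GCA 1 to 3, against 3.27%, 4.98% and 4.74% in CON 1 to 3. Wilson 95% intervals ran from 7.66% to 14.99% for the lowest GCA library and from 2.72% to 8.91% for the highest CON library, and cover counting error only. BTN3A2 made up 54.3%, 52.0% and 49.7% in GCA, against 63.4%, 63.7% and 68.4% in CON. The BTN3A1 share stayed within the spread, at 30.0 ± 4.46% in GCA and 30.5 ± 3.31% in CON. Shares of BTN3A3 and BTN3A2 did not overlap between groups (two-sided exact permutation p = 0.1 each, the smallest that 3 against 3 allows). As parts of the same sum, the higher BTN3A3 share and the lower BTN3A2 share are not separate results, and the BTN3A2 level itself had no call. These shares were added after the data were seen.

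BTN2A2, known to restrain T cell activation, had 388, 344 and 422 counts in GCA, against 155, 245 and 261 in CON. In CPM these were 19.3, 17.5 and 22.1 in GCA and 8.63, 12.8 and 13.5 in CON, with every GCA library above every CON library. Its log2 fold change was 0.75 ± 0.18, a 1.68-fold higher level (edgeR adjusted p = 0.00682). The call held in 19 of 20 alternatives and was lost on unfiltered log2(FPKM + 1) (adjusted p = 0.0732).

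BTN2A1, the partner of BTN3A1, had 142, 177 and 182 counts in GCA, against 127, 237 and 299 in CON, or 7.05, 9.01 and 9.53 CPM in GCA and 7.07, 12.4 and 15.5 CPM in CON. CON 2 and 3 lay above all GCA libraries, while CON 1 lay at the level of GCA 1. The log2 fold change of -0.45 ± 0.25 did not pass (edgeR adjusted p = 0.166). Without CON 1 the value was -0.71 and passed (adjusted p = 0.00376), and without replicate 1 of both groups it was -0.56 and passed too (0.00437). Those fits called 6707 of 12740 and 7419 of 12674 tested genes, so calls were more common there. Over all tested genes, principal component 2 (18.1% of the variance) placed CON 1 at 34.5, and CON 2 and CON 3 at -14.7 and -17.8.

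Of the summed BTN2A counts, BTN2A2 made up 73.2%, 66.0% and 69.9% in GCA, against 55.0%, 50.8% and 46.6% in CON. These shares do not depend on library scaling, and the lowest GCA value lay above the highest CON value (two-sided exact permutation p = 0.1, the smallest possible). BTN2A1 was thus the smaller part in each GCA library, at 26.8% to 34.0%. It was also the smaller part in CON 1 and CON 2 (45.04% and 49.2%), and the larger part in CON 3 (53.4%). The BTN2A sum, added like these shares after the data were seen, was 28.2 ± 3.02 CPM in GCA and 23.3 ± 6.84 CPM in CON. The groups overlapped, while the sum was higher in GCA in 3 of 3 same-numbered pairs. BTN2A1 itself was lower in GCA in 3 of 3 such pairs, though nearly level in the first. Whether the replicate numbers mark true pairs is not known.

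**Figure D2:**
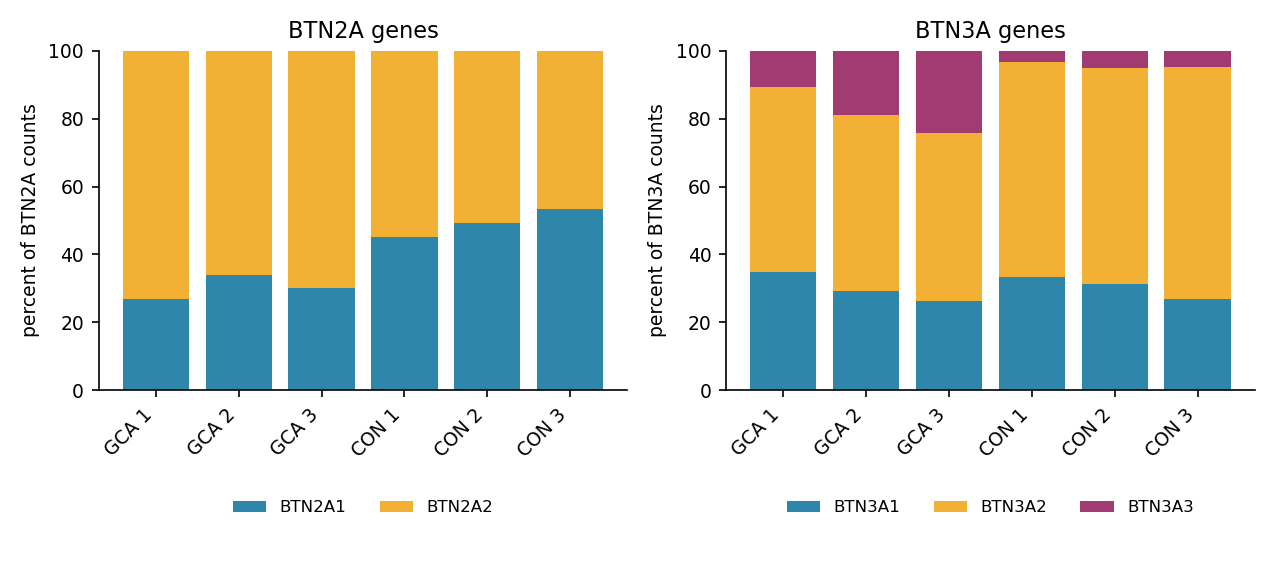
Share of each gene, in percent, of the summed BTN2A counts (left) and of the summed BTN3A counts (right) in each of the 3 GCA and 3 CON libraries. BTN2A2 takes 66.0% to 73.2% of BTN2A counts in GCA and 46.6% to 55.0% in CON, and BTN3A3 takes 10.8% to 24.1% of BTN3A counts in GCA and 3.27% to 4.98% in CON.

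BTN1A1, the milk fat globule butyrophilin, was close to the limit of what the depth shows. It had 21, 15 and 11 counts in GCA, against 4, 6 and 8 in CON, or 1.04, 0.763 and 0.576 CPM in GCA and 0.223, 0.313 and 0.414 CPM in CON. The groups did not overlap, and the log2 fold change of 1.31 ± 0.45 passed narrowly (edgeR adjusted p = 0.0380). It passed the count filter through its GCA libraries, as 0 of 3 CON libraries reached the minimum, so this call is a description. The call was lost without any one of the 6 libraries (adjusted p from 0.0511 to 0.128), with the replicate number as a block (0.0532) and in DESeq2 (0.108).

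BTNL9 had 64, 60 and 85 counts in GCA, against 26, 53 and 64 in CON, or 3.18, 3.05 and 4.45 CPM in GCA and 1.45, 2.76 and 3.31 CPM in CON. It was higher in GCA in 3 of 3 same-numbered pairs, while the groups overlapped. Its log2 fold change was 0.50 ± 0.30 (edgeR adjusted p = 0.211), and 0.21 after adjustment for GC and length. The gut epithelial pair was all but undetected. BTNL8 had 5, 0 and 0 counts in GCA, against 0, 1 and 0 in CON, and BTNL3 had 1, 0 and 0 in GCA, against 0 in each CON library. A floor of 3 counts corresponds to 0.149 to 0.167 CPM per library. BTNL3 stayed under that floor in every library, so a lower level was not detectable at this depth, and no fold is given for either gene.

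**Figure D3:**
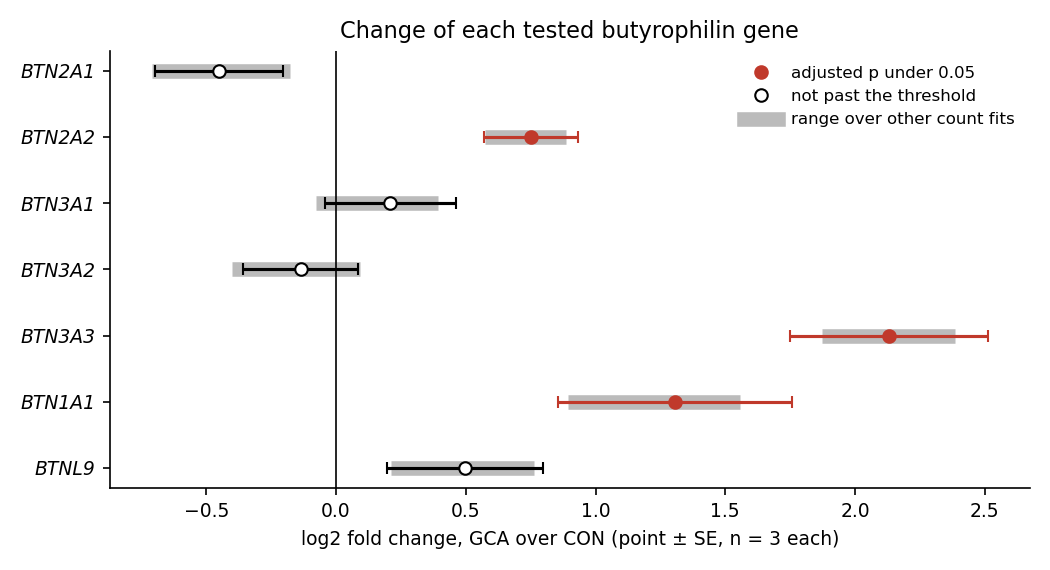
Log2 fold change of GCA over CON for the 7 tested butyrophilins, each with its SE (3 libraries per group). Filled red points passed an adjusted p of 0.05, open points did not, and gray bands span the other fits to counts, libraries left out included. The bands of BTN2A2, BTN3A3, BTN1A1 and BTNL9 lie above 0, that of BTN2A1 lies below 0, and those of BTN3A1 and BTN3A2 cross 0.

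Of 22 genes reported to act on the level or function of BTN3A and BTN2A1, 19 were tested, of which 9 rose, 3 fell and 7 did not pass, against the 36.4% of all tested genes called in either direction. Their median log2 fold change was 0.28. NLRC5, a transactivator of MHC class I and BTN3A promoters, had 17.8, 18.7 and 19.6 CPM in GCA, against 8.69, 8.499 and 9.94 CPM in CON. The groups were well apart (log2 1.05 ± 0.15, adjusted p = 0.000265). The interferon-linked factor IRF9 had 54.8, 66.4 and 80.6 CPM in GCA, against 10.9, 16.9 and 20.4 CPM in CON (log2 2.06 ± 0.20, adjusted p = 2.23e-05). IRF1 rose by 0.82 ± 0.12 on the log2 scale to 38.2 ± 3.17 CPM in GCA, against 21.6 ± 0.859 CPM in CON. PPL encodes periplakin, a cytoskeletal linker that binds the BTN3A1 tail. It had 124, 114 and 98.9 CPM in GCA, against 49.7, 62.2 and 68.6 CPM in CON (log2 0.90 ± 0.14, adjusted p = 0.000507).

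The NLRC5 partners RFX5 and RFXANK, ZNF217 and ABCA1 were among the other genes of the list that rose. RFX5 had a log2 fold change of 0.55 and RFXANK of 0.58, while RFXAP, the remaining RFX subunit, did not pass (-0.07, adjusted p = 0.853). RFXANK lost its call after adjustment for GC and length (log2 0.15, adjusted p = 0.197). ABCA1, a lipid exporter also reported to move the isoprenoid intermediate out of cells, had 33, 36 and 31 counts in GCA, against 1, 13 and 11 in CON, and 2 of 3 CON libraries reached the filter's minimum. The genes that fell encode subunits of the energy sensor AMPK, namely PRKAA1 (-0.47), PRKAB2 (-0.71) and PRKAA2 (-1.23). The other tested AMPK subunit genes, PRKAB1 (-0.03), PRKAG1 (0.19) and PRKAG2 (0.28), did not pass. After that adjustment PRKAA1 stood at -0.11 (adjusted p = 0.478) and PRKAB2 at -0.37 (0.0997), so the fall of these 2 was lost. RHOB, a GTPase reported to redistribute when BTN3A1 is activated, had a log2 value of -0.15 (adjusted p = 0.327), which passed as lower with the adjustment (-0.43, 0.00689). ZNF217, up by 0.44, kept its call with the adjustment but lost it in 9 of 20 alternatives.

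The mevalonate pathway, which supplies the intermediates that BTN3A1 binds, held 1 called gene of 10 tested, while 36.4% of all tested genes were called. Among these tested enzyme genes PMVK, which encodes phosphomevalonate kinase, rose and the other 9 did not pass (median log2 fold change -0.12). PMVK had 48.4, 46.7 and 48.0 CPM in GCA, against 33.0, 26.6 and 29.8 CPM in CON (log2 0.68 ± 0.12, edgeR adjusted p = 0.00110). Once GC content and length were adjusted for, it stood at 0.24 (adjusted p = 0.0927), and then no gene of the list passed. FDPS, which consumes the intermediate, had a log2 value of -0.11 ± 0.15 (edgeR adjusted p = 0.579). HMGCS1 (-0.24) and MVD (0.23) did not pass either. Without CON 1, 4 of the 10 passed, while 6707 of 12740 tested genes were called over the whole table.

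**Figure D4:**
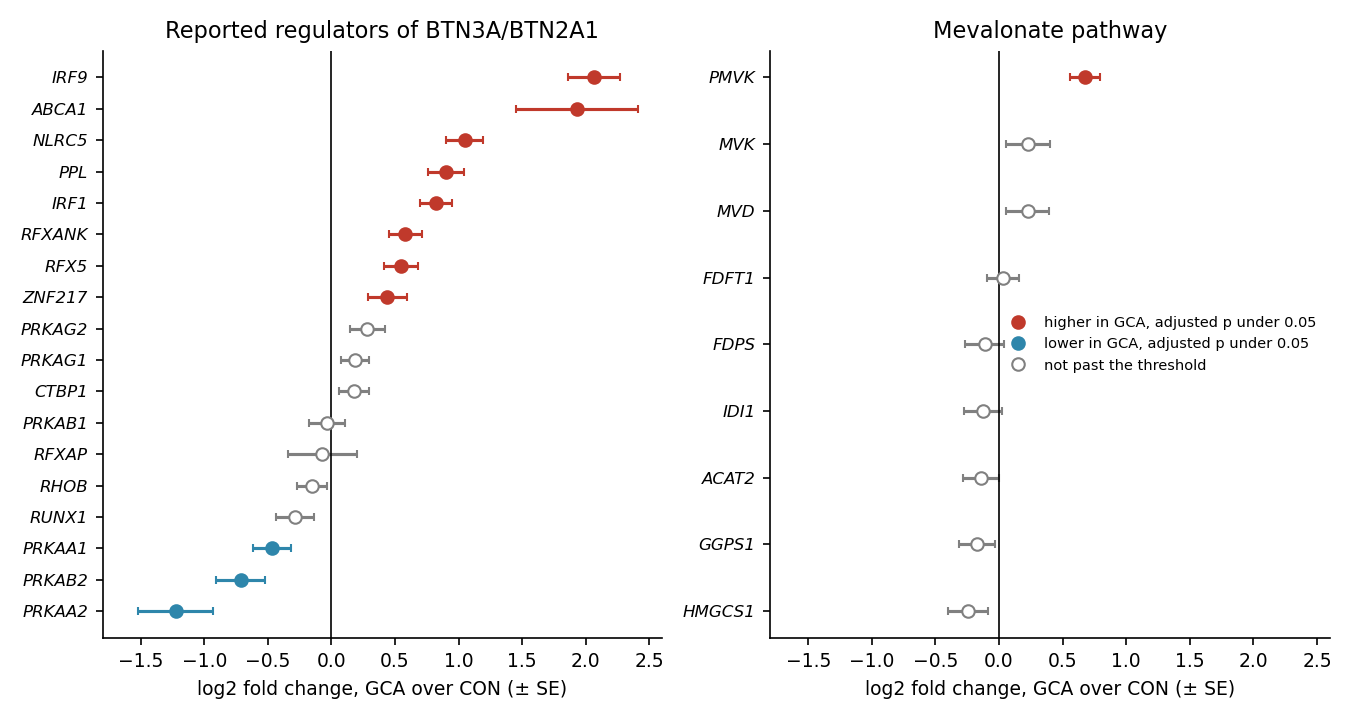
Log2 fold change of GCA over CON with SE for 18 tested genes reported to act on BTN3A or BTN2A1 (left) and 9 tested mevalonate pathway genes (right). Filled points passed an adjusted p of 0.05, red for higher and blue for lower in GCA. On the left 8 genes are red and 3 blue, and on the right PMVK alone is filled.

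Of 9 tested genes for other proteins reported as ligands of gamma-delta receptors, 1 rose and 3 fell, a share near the 36.4% called over all tested genes, and the median over all 9 was -0.05 on the log2 scale. ANXA6 rose (0.49), and ANXA2 (-0.67) and HSPD1 (-0.91) were among those that fell. ANXA2 is known as a membrane-binding protein and HSPD1 as a mitochondrial chaperone. The ANXA6 call was lost without CON 2 (adjusted p = 0.0570). Among butyrophilin-like and B7-related genes, ERMAP, a blood group antigen gene, had 4.67 ± 0.664 CPM in GCA and 3.76 ± 1.47 CPM in CON (log2 0.31 ± 0.27, adjusted p = 0.384). VTCN1, which encodes the inhibitory ligand B7-H4, had 24, 50 and 17 counts in GCA, against 0, 1 and 2 in CON. It passed the count filter through its GCA libraries, as 0 of 3 CON libraries reached the minimum, so its call (edgeR adjusted p = 0.000425) is a description. Its CON counts lie under the floor, so no fitted fold is given.

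Around the chromosome 6 cluster, within 500 kb on either side, 28 other genes had a row and 11 were tested, of which 6 rose and 1 fell, beside 18.3% and 18.1% over all tested genes. Most are histone genes, which share sequence and are uncertain singly. H1-2 (1.62), H2BC5 (1.39), H2AC6 (1.26) and H3C6 (1.57) had the lowest p-values. H3C6 passed the filter through its GCA libraries, with 1 of 3 CON libraries at the minimum, and its call was lost with 1 library left out (adjusted p up to 0.0512). Another histone gene that rose had 2 of 3 CON libraries at the minimum. The histone gene that fell passed the filter through its CON libraries, with 0 of 3 GCA libraries at the minimum. The counts of rises and falls in this window are therefore descriptions. Of the 5 tested genes in this window other than histones, TRIM38 rose (log2 0.75, adjusted p = 0.0264), a call lost in 6 of 20 alternatives. The other 4, HFE, HMGN4, ABT1 and ZNF322, did not pass. Without GCA 3, 4 of the 11 passed, while 2621 of 12703 tested genes were called over the whole table.

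Over all 6 libraries BTN2A2 had the highest mean FPKM of the group, although BTN2A1 ranked first in CON. The genes with the most similar profile to it were IRF2BPL, ATG16L2, ALOX5, MSLN and GGT7. Likeness was the root-mean-square distance between mean-centred log2 CPM over the 6 libraries, at 0.0594, 0.0658, 0.07245, 0.0758 and 0.0778 in that order. Since likeness to BTN2A2 over these libraries chose them, their log2 fold changes of 0.71 to 0.84 follow from the choice and are a description. After adjustment for GC and length BTN2A2 stood at 0.73, ALOX5 at 0.60, ATG16L2 at 0.39, GGT7 at 0.36, IRF2BPL at 0.32 and MSLN at 0.22. The GC content of the 5 genes was 56.5% to 65.3%, against 53.1% in BTN2A2.

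Marker genes bear on which cells the libraries hold. Colorectal epithelial markers, with KRT8, KRT18 and KRT19 the most abundant, summed to between 11132 and 12703 CPM in GCA and between 7918 and 10110 CPM in CON. KRT18 averaged 2356 CPM in GCA and 1446 CPM in CON, and EPCAM and CDX2 were expressed. Of the intestinal markers CDX2 averaged 36.7 CPM in GCA and 30.8 CPM in CON, while KRT20, VIL1, CDX1 and LGR5 were low. KRT20 averaged 1.92 CPM in GCA and 0.916 CPM in CON. VIL1 had 8 to 22 counts, CDX1 2 to 7 and LGR5 at most 1 count per library. T cell markers summed to at most 0.157 CPM in GCA and 0.0521 CPM in CON, with 4 of 9 having a row, and the pan-leukocyte gene PTPRC had at most 1 count in a library, so T cell RNA was at the limit of detection. Markers of other blood cells (7 of 7 with a row) summed to between 10.8 and 13.0 CPM in GCA and between 9.91 and 11.4 CPM in CON, mostly HBB. The extraction protocol in the labels speaks of heart. Cardiomyocyte markers summed to between 38.3 and 44.05 CPM in GCA and between 22.8 and 25.5 CPM in CON, nearly all from TNNI3 and MB, while MYH6, MYH7, ACTC1 and NPPA had at most 1 count in any library. Fibroblast and endothelial markers, led by COL1A1 and VWF, summed to between 16.5 and 18.5 CPM in GCA and between 11.9 and 13.2 CPM in CON. The epithelial, cardiomyocyte and fibroblast sums did not overlap between groups. Of all tested genes, 24.1% had every GCA library above every CON library. Adjusted for GC and length, KRT8 (log2 0.18, edgeR adjusted p = 0.261), TNNI3 (0.12, 0.507) and COL1A1 (0.10, 0.556) lost their calls as higher. MB (1.80) and VWF (1.45) kept theirs, though both passed the count filter through their GCA libraries. The part of these markers in the butyrophilin values was not tested, and in bulk RNA fewer cells of a kind and less RNA per cell cannot be told apart.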

How the data were processed

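The authors deposited raw counts per gene symbol and FPKM values for 16229 genes in 6 libraries. Tools in the submitters' processing notes are HISAT2 2.2.1.0, fastp 0.20.1 and HTSeq 0.11.2, with build hg38. No source used here gives the strand setting, annotation or filters. The deposited FPKM equals, to a relative 1e-09, the count divided by the library total and a fixed gene length, so it adds no measurement. A script matched columns to samples by title and took groups from the treatment label.

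Counts were fitted with edgeR 4.0.16 in R 4.3.3 (TMM, filterByExpr with minimum count 10 and total 15, glmQLFit, glmQLFTest, Benjamini-Hochberg adjustment), tested on simulated data first. The SE is the log2 fold change over the square root of F. CPM uses TMM-scaled library sizes. Total counts of 18057453 to 20531612 limit precision for genes near the floor of 3 counts. Alternatives used DESeq2 1.42.0, limma 3.58.1, other scalings and filters, a per-library smooth on GC content and length (mgcv 1.9.3, GC known for 99.2% of genes), and left out each library. Same-numbered libraries deviated together across genes (correlations 0.206, 0.137 and 0.104). By a limit of 0.1 a block on replicate number was therefore fitted beside the main test, which has no block. These correlations across genes do not establish that the numbers mark true pairs. Promoter windows and gene positions are from RefSeq (GRCh38.p14), with 6 of 9 genes matched to a window.

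The butyrophilins and the gene lists were chosen with earlier results of these data known. Named were all 9 butyrophilins, the 4 genes of each pathway list and of the chromosome 6 window with the lowest p, NLRC5, IRF1, FDPS, RHOB and PPL, the 5 profiles nearest to the most abundant butyrophilin, and the 2 most abundant markers per cell type. Any other named gene was chosen after its values were seen. Of the markers, CD247 is not described singly, and ITGAX only among the values whose sign turned. Some genes of the pathway lists are counted in the list totals and not reported singly here.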

Additional observations from a re-analysis of the deposited data

How the results depend on the processing

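Among the butyrophilins, BTN3A3 kept its call and direction in all 20 alternatives and BTN2A2 in 19 of 20, while the BTN1A1 call was lost in 12 of the 19 that tested it. BTN3A3 and BTN1A1 passed the count filter through their GCA libraries, so their calls are descriptions. The alternatives refit the same libraries and add no separate evidence. The count of called butyrophilins was 3 of 7 as reported, beside 36.4% of all tested genes called in either direction. It was 2 or 3 in every alternative, and 2 to 3 when 1 library was left out. Without CON 1, and without replicate 1 of both groups, the 3 were 2 higher and 1 lower, as BTN1A1 was lost and BTN2A1 was called lower. With the replicate number as a block it was 2, since BTN1A1 was lost (adjusted p = 0.0532); the block changed no other butyrophilin call and gave 5163 calls over the whole table, against 4584 without it. Whole-table calls ran from 2621 (without GCA 3) to 6707 (without CON 1) with 1 library left out, were 3029 without CON 2 and 7419 without replicate 1 of both groups. Adjustment for GC and length left 3536 calls, 1629 higher and 1907 lower; across genes the log2 fold change correlated with GC content at r = 0.49 before it, and genes are not independent replicates. Calls around the cluster ran from 4 to 10, and mevalonate calls from 1 to 4, with 1 library left out. Mevalonate calls were 4 without replicate 1 of both groups and 0 after adjustment for GC and length, with or without the block. The list of butyrophilin-like genes had 0 calls with a filter of CPM of at least 1 in 3 libraries, since VTCN1 then was not tested.

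The values whose sign turned had no call as reported. BTN3A1 stood at -0.0024 without GCA 1 and -0.078 without replicate 1 of both groups, and ran from -0.0024 to 0.39 with 1 library left out. BTN3A2 stood at 0.016 after adjustment for GC and length, 0.030 with adjustment and block, and ran from -0.29 to 0.092 with 1 library left out. With the adjustment, and with adjustment and block, HMGCS1 stood at 0.11 and 0.11, MVD at -0.23 and -0.22, HBB at -0.047 and -0.048 and KRT19 at -0.26 and -0.26. FDPS ran from -0.23 to 0.086 with 1 library left out and stood at 0.11 without replicate 1 of both groups. ITGAX ran from -0.28 to 0.66 with 1 library left out, and stood at -0.067 with the adjustment and -0.18 without replicate 1 of both groups. The cause of these turns was not tested. Depth limits BTN1A1, BTNL3 and BTNL8 most.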
